A study of Mus musculus with 16 samples.

Results

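The genes described here are the DEAD and DEAH box RNA helicases of the mouse, taken as all probe sets whose only gene symbol in the platform annotation begins with Ddx or Dhx followed by a digit. These were 113 of the 45101 probe sets of the table, and they covered 51 genes, of which 35 were Ddx and 16 were Dhx genes. A probe set is the group of short oligonucleotides on the array that together report one transcript, and a gene can have several. Probe sets differ in how strongly they bind, so an intensity is read here against the same probe set on other arrays and not as a transcript level. Where 3 intensities are given for a group, they are the lowest, the median and the highest of its 8 arrays. All 16 arrays carried a single preparation of total RNA from a culture of the embryonic stem cell line E14tg2a. For the 8 amplified arrays the RNA was diluted to 10 pg, about the content of a single cell, and each dilution was turned into cDNA and amplified by PCR on its own by the method called V1V3. For the 8 nonamplified arrays, 5 µg of the undiluted RNA was labelled directly. The arrays of a group are technical replicates of one RNA preparation of one line, so each p-value measures technical spread and none measures spread between cultures.

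DEAD and DEAH box proteins are ATPases named for the letters of a conserved motif in their helicase core. They bind RNA with little regard for sequence, and they separate short duplexes or strip proteins from RNA and so drive the steps of a transcript's life, from transcription through splicing, export and translation to decay, as well as the maturation of ribosomal RNA. DEAD box proteins mostly open duplexes locally, whereas DEAH box proteins mostly move along a strand and pull on it. Growing stem cells make many ribosomes and depend on much of this set, while a few members act in germ cells or in the sensing of viral RNA.

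Median intensity over all probe sets was between 33.9 and 36.7 on the amplified arrays and between 49.7 and 53.8 on the nonamplified arrays. The label of the cells was checked against marker lists. Pluripotency genes were bright on all arrays for Pou5f1 (at least 2766), Sox2 (at least 3891), Zfp42 (at least 3745), Tdgf1 (at least 4140) and Dppa5a (at least 8142), but others on the list were not. Lin28a fell from medians of 1962 and 906 to 91.0 and 15.8 in its probe sets, and Nanog from 1776 to 249. Esrrb fell from 615 to 10.6 in 1422986_at and from 1407 to 611 in 1436926_at, but rose from 531 to 698 in 1441921_x_at. Utf1 rose from 1766 to 8816 in 1416899_at and from 224 to 2322 in 1443786_at, and the Klf4 probe sets did not pass. Of the 15 tested probe sets on the list, 6 were called higher and 6 lower after amplification (40% each, against 24.7% and 32.8% of all tested). Of the other lists, 4 of 13 probe sets of fibroblast genes and 9 of 22 of differentiated lineage genes passed the filter on dim probe sets. Of the 9 lineage ones 5 were called higher and 2 lower (55.6% and 22.2%), and of the 4 fibroblast ones 1 and 2. Brightest among the 9 was Pax6 1419271_at, with medians of 249 without amplification and 311 after it. Gata6 1443081_at rose from 69.2 to 230. The filter kept probe sets whose mean of log2(intensity + 16) over all 16 arrays was above the 40th percentile, which left 27022, and it kept 95 of the 113 helicase probe sets. These 95 covered 48 of the 51 genes. The other 18 helicase probe sets, among them every probe set of Ddx60, Dhx58 and Dhx37, lay at or under the filter and were not tested. The filter uses both groups, so a probe set bright in either group could pass. Of the 95, 2 were at or under that level without amplification, Ddx23 1439952_at and Dhx30 1453251_at, and both were called higher. Another 7 were at or under it after amplification, and 6 of them were called lower. For these 9 the fitted difference is set against a dim group and depends on the added constant. Of the 86 above it in both groups, 28 were called higher and 24 lower.

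Without amplification the helicases gave nearly the same intensity on every array: all 95 tested probe sets stayed within 2-fold of their nonamplified mean on all 8 nonamplified arrays. After amplification, 20 of the 95 did so on all 8 arrays (21.1%, against 23.0% of all tested probe sets), and 23 lay within 2-fold of that mean on none of them (24.2%, against 17.4%). The median of the members' intensities was between 263 and 287 on the nonamplified arrays and between 123 and 203 on the amplified arrays. Group means of the 95 probe sets correlated with a Pearson's r of 0.67 and a Spearman's rho of 0.64 on the log2 scale, across probe sets of differing affinity that share the same arrays, and the same values over all tested probe sets were 0.69 and 0.55.

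In the comparison of amplified with nonamplified arrays, fitted with limma across all 27022 tested probe sets, 30 of the 95 helicase probe sets were higher after amplification (31.6%, against a background of 24.7%), 30 were lower (31.6%, against 32.8%) and 35 did not pass the test. In all, 57.5% of tested probe sets were called. A call means an adjusted p under 0.05 after Benjamini-Hochberg adjustment. At least 2-fold higher were 15 (15.8%, background 12.5%) and at least 2-fold lower were 23 (24.2%, background 22.1%). The 8 amplified values lay wholly outside the range of the 8 nonamplified values for 47 helicase probe sets (49.5%, background 33.6%), 23 of them above and 24 below. The median log2 fold change was −0.25 over the helicases and −0.17 over all tested probe sets, and the 70 Ddx probe sets (21 higher, 22 lower) and the 25 Dhx probe sets (9 higher, 8 lower) had medians of −0.24 and −0.34.

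Direction depended on how the arrays were scaled for a part of the set. Quantile normalization moved the median of all tested probe sets to −0.03, scaling to the brighter 50% of them to 0.10, centring arrays on their medians to 0.28 and scaling to the hybridization controls to −0.51. Across the deposited values and these other scalings, 5 in all, 23 helicase probe sets were called lower in every one and 12 were called higher in every one. Another 11 were called higher under one scaling and lower under another. These 11 were 4 of Ddx5 and 1 each of Ddx3x, Ddx18, Ddx21, Ddx39a, Ddx39b, Dhx15 and Dhx30, and all directions given for them below hold for the deposited values only. Of the 35 probe sets that did not pass as deposited, 23 were called under at least 1 of the other 4 scalings. No share over all tested probe sets is given for these counts across scalings, here or by role below. They describe the helicases alone and do not set them apart from other genes. The share of higher calls among all helicase calls was 50% as deposited (43.0% over all tested probe sets). It was 29.0% under quantile normalization (50.7% over all), 59.3% on the brighter 50% (57.0%) and 64.1% with median centring (65.4%). On the hybridization controls it was 27.4% (24.8%), and with probe sets of type _x_at and _s_at left out it was 34.1% (40.7%).

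**Figure D1:**
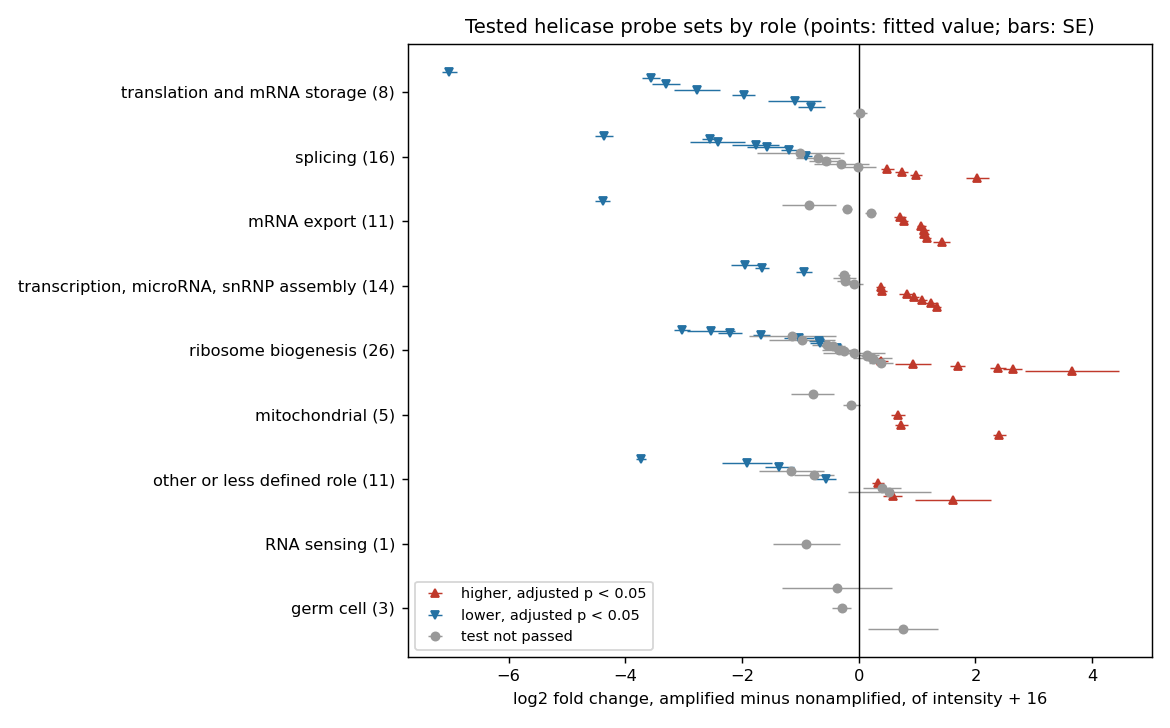
Log2 fold change (amplified minus nonamplified, of intensity + 16) of each of the 95 tested helicase probe sets, one point per probe set with its standard error as a bar, in rows by role with the number of probe sets in brackets. Upward red triangles passed the test as higher, downward blue triangles as lower, and grey circles did not pass; the translation row lies at or left of 0 except for one grey point at 0.025, and the export row lies mostly right of 0.

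Helicases of translation and mRNA storage were the group with the lowest median. Of 8 tested probe sets of Ddx3x, Ddx6 and Dhx29, 7 were lower after amplification (87.5%, against 32.8% of all tested probe sets). Of the rest, 0 were higher (against 24.7%) and 1 did not pass. The median log2 fold change was −2.37, and 5 of the 7 were lower under all 5 scalings. In 3 of those 5, 1 of each gene, the amplified group was at or under the filter level. Ddx3x, an X-linked helicase that helps ribosomes load on mRNAs with structured leaders, held both the lowest fitted value of the family and a probe set that did not pass.

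The Ddx3x probe set 1423043_s_at gave a lowest, median and highest intensity of 3009, 3183 and 3284 on the nonamplified arrays. On the amplified arrays the same probe set gave 1, 9.03 and 15.6. Every amplified array was far below every nonamplified one, with a fitted log2 difference of −7.02 (SE 0.13; limma adjusted p = 1.52e-16). All 8 amplified values lay under the added constant of 16, so the size of that difference is set by the constant, and it was −8.59 with a constant of 1 and −5.47 with one of 64. A second Ddx3x probe set, 1423042_at, which the annotation assigns to the same sequence record, gave 2450, 2514 and 2601 without amplification and 2029, 2521 and 3980 with it. There the groups overlapped, and the difference did not pass (log2 fold change 0.025, SE 0.12, limma adjusted p = 0.873); it was −0.065 without amplified replicate 1 and lower with a call under quantile normalization (−0.83). The third, 1416467_at, which has another record, gave 1650, 1811 and 1888 and then 52.7, 326 and 586, again with no overlap (log2 fold change −2.76, SE 0.39, limma adjusted p = 1.30e-05). The 3 probe sets of one gene thus gave 3 separate answers, from an intensity under 16 on every amplified array to one at the nonamplified level. A probe set of type _s_at can match more than one transcript, so its signal cannot be assigned to Ddx3x alone. D1Pas1, the autosomal mouse relative of Ddx3x, had 2 probe sets with log2 fold changes of −1.49 and −1.28, both called lower.

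Ddx6, which holds untranslated mRNAs in P-bodies and links them to decapping, was lower in all 3 tested probe sets. Its brightest, 1434697_at, gave 1015, 1183 and 1297 without amplification and 44.5, 104 and 208 after it (log2 fold change −3.30, SE 0.24, limma adjusted p = 4.47e-09). Probe set 1424598_at gave 229, 263 and 299.6 and then 1.06, 7.66 and 25.8 (log2 fold change −3.56, SE 0.15, limma adjusted p = 5.31e-12). In both the groups were far apart. The third, 1439122_at, fell from 127, 157 and 178 to 19.1, 95.5 and 125, still without overlap, by a smaller step (log2 fold change −0.81, SE 0.23, limma adjusted p = 0.00632), and was lower in 3 of the 5 scalings.

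Dhx29 sits on the small ribosomal subunit and helps it scan through structured leaders. Its probe set 1439076_at gave 140.3, 156 and 185 on the nonamplified and 1.90, 31.4 and 44.1 on the amplified arrays, with no overlap (log2 fold change −1.97, SE 0.19, limma adjusted p = 1.74e-07). For 1434710_at the amplified arrays spread over 1 to 335 around nonamplified values of 265 to 311, and the call was marginal (log2 fold change −1.10, SE 0.45, limma adjusted p = 0.046). Leaving out any single nonamplified array, or amplified replicate 1, 4, 6 or 7, ended it, with log2 fold changes of −1.14 to −1.06 and limma adjusted p between 0.0521 and 0.0704.

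The DEAD box factor Eif4a1, which opens mRNA leaders within the cap-binding complex and carries no family name, gave the same mixture. Its probe sets 1427058_at and 1430980_a_at were called lower (log2 fold changes −2.37 and −3.89), whereas 1434985_a_at did not pass (0.11, limma adjusted p = 0.203). Eif4a2, its close relative, was lower (−1.14). Of its cofactors, 2 probe sets of Eif4b were lower (−1.05 and −1.04) and 1 was higher (0.94), and Pdcd4, an inhibitor of Eif4a, was lower (−2.18). Over the whole list of related helicases without a Ddx or Dhx name, 3 of 30 tested probe sets were higher and 15 were lower (10% and 50%, against 24.7% and 32.8% of all tested), with a median of −0.80. The largest changes in that list were Eif4a1 1430980_a_at and Aqr 1430971_a_at (−3.71), a helicase of the spliceosome. Of helicase cofactors, 5 of 39 were higher and 18 lower (12.8% and 46.2%), with a median of −0.72. The largest change in that list was in Gle1 1440720_s_at (−3.23), which activates Ddx19 at the nuclear pore, although another Gle1 probe set, 1426344_at, was higher (0.84).

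**Figure D2:**
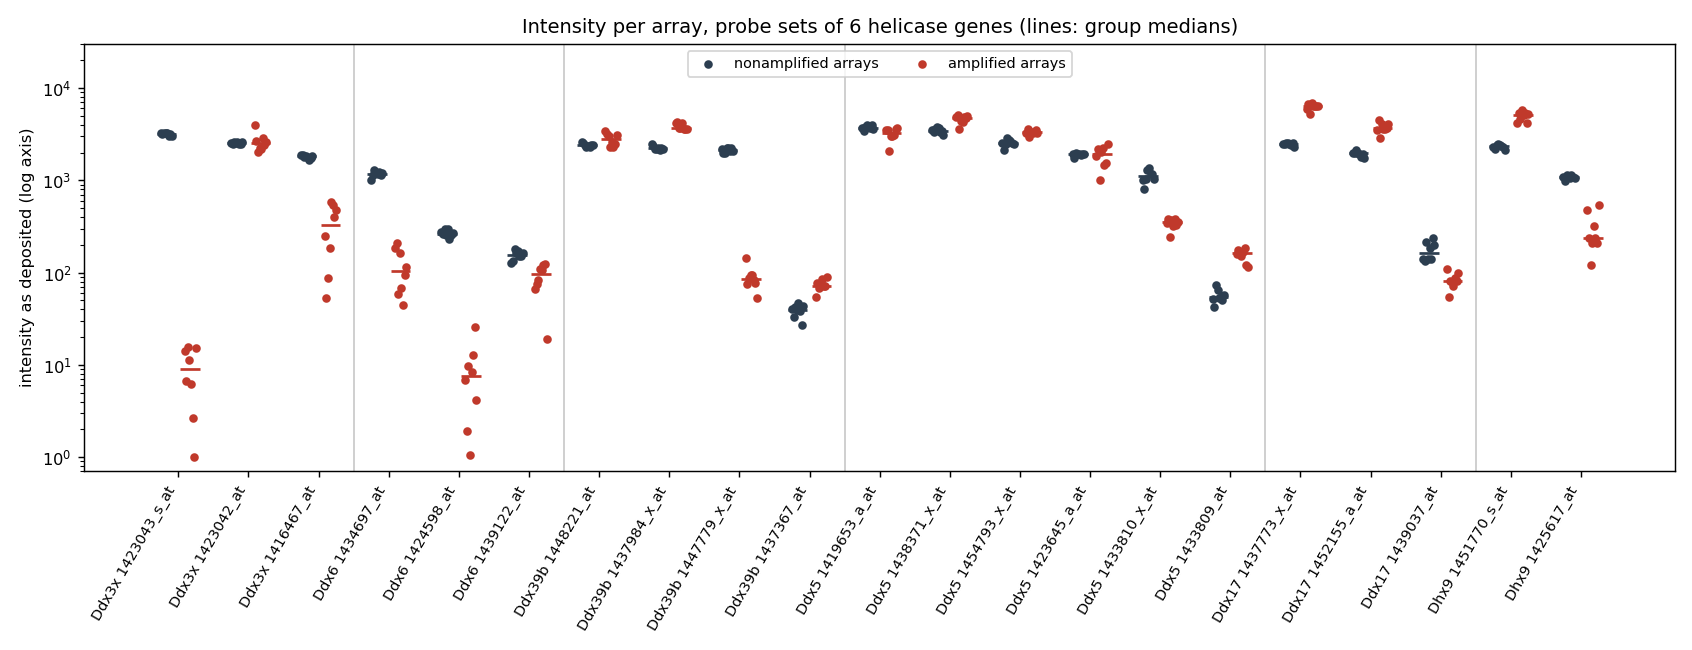
Intensity as deposited (log axis) of every tested probe set of Ddx3x, Ddx6, Ddx39b, Ddx5, Ddx17 and Dhx9 on the 8 nonamplified arrays (dark points) and the 8 amplified arrays (red points), with group medians as lines and grey lines between genes. For Ddx3x the first probe set drops from a median of 3183 to 9.03 while the second has medians of 2514 and 2521.

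Splicing helicases were mostly lower or did not pass, apart from Dhx15 and Ddx23. Of 16 tested probe sets of 9 genes, 7 fell (43.8%), 4 rose (25%) and 5 did not pass (median −0.80). Over all tested probe sets 32.8% were lower and 24.7% higher, and at nonamplified means between 100 and 500 the shares were 44.0% and 12.3%. Most splicing probe sets lay at that level. All 7 lower calls held under all 5 scalings. In 3 of the 7, 2 of Ddx46 and 1 of Dhx38, the amplified group was at or under the filter level. The higher calls were the 2 probe sets of Dhx15 and the 2 of Ddx23.

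Ddx46 is the mouse counterpart of yeast Prp5, which prepares the branch point for the U2 particle. It has 5 tested probe sets, of which 3 were lower and 2 did not pass. Probe set 1424570_at gave 443, 464 and 683 without amplification and 1, 8.28 and 18.7 after it, with no overlap (log2 fold change −4.37, SE 0.16, limma adjusted p = 6.29e-13). Its nonamplified replicate 8, at 683, stood above the other 7, which reached at most 503. The probe set 1424569_at of the same sequence record gave 289, 309 and 333 and 66.5, 271 and 419.6, with overlap and no call (log2 fold change −0.57, SE 0.28, limma adjusted p = 0.099), and was called without amplified replicate 3 (−0.71, limma adjusted p = 0.0325). The third of that record, 1424571_at, fell from 214, 246 and 277 to 1, 29.0 and 200.1 (log2 fold change −2.42, SE 0.47, limma adjusted p = 0.000332). Probe set 1457744_at fell less (log2 fold change −0.91) and 1455103_at, one of the most variable of the family, did not pass (−1.0).

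Dhx16, the counterpart of yeast Prp2, which activates the assembled spliceosome, gave 1493, 1566 and 1623 without amplification and 472, 640.0 and 978 with it. The groups did not overlap, and its log2 fold change of −1.20 (SE 0.14) was called. Dhx8, the counterpart of Prp22, which releases the spliced mRNA, gave 346, 373 and 399.6 and then 1, 127 and 261, a log2 fold change of −1.77. Ddx41, found in late spliceosomes, was lower as well (−1.57). Dhx38, the counterpart of Prp16, which remodels the spliceosome between the catalytic steps, was lower in 1453751_at (a range of 129.9 to 162 without and 3.34 to 16.8 with amplification, log2 fold change −2.56) and did not pass in 1426786_s_at (−0.30). That second probe set reached 882 on amplified replicate 8 alone, and without this array it was called lower (−0.71, limma adjusted p = 0.0399).

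Dhx15, the counterpart of Prp43, which takes apart the spent spliceosome, was among the brightest members. Its probe set 1416145_at gave 2562, 2720 and 2955 without amplification and 3201, 3579 and 5406 after it (log2 fold change 0.49, SE 0.11, limma adjusted p = 0.00111). All amplified arrays lay above all nonamplified ones, but the direction turned under quantile normalization (−0.38). Probe set 1416144_a_at of the same record rose more, from 2057, 2211 and 2459 to 3599, 4287 and 6230 (log2 fold change 0.98, SE 0.11, limma adjusted p = 6.41e-07), and did not pass under quantile normalization (0.11). Ddx23, the counterpart of Prp28, which helps U6 replace U1, was dim without amplification. Its probe set 1439952_at, under the filter level on every nonamplified array, gave 4.69, 24.1 and 32.7 and then 79.4, 133 and 175 (log2 fold change 2.03), and 1430050_at rose from 28.7, 44.6 and 56.4 to 69.4, 79.5 and 98.6 (0.73). Ddx42 (−0.019) and Dhx35 (−0.69) did not pass.

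The mRNA export helicases leaned the other way. Of 11 tested probe sets of Ddx39a, Ddx39b and Ddx19b, 7 rose after amplification, 1 fell and 3 did not pass. That is 63.6% higher and 9.09% lower, against 24.7% and 32.8% of all tested probe sets. Most had a nonamplified mean of 2000 or more, a level at which 58.5% of all tested probe sets were higher and 21.1% lower. The median log2 fold change was 0.77, and 4 of the 7 were higher under all 5 scalings. Ddx39a and Ddx39b are near-identical paralogues that load the export complex on spliced mRNA, so probe sets of type _x_at may read both.

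For Ddx39a, 4 of 5 probe sets rose by nearly the same step. The brightest, 1438287_x_at, gave 3220, 3372 and 3557 without amplification and 6326, 7364 and 8681 after it (log2 fold change 1.12, SE 0.083, limma adjusted p = 5.24e-09). The probe sets 1455814_x_at, 1438168_x_at and 1451065_a_at had log2 fold changes of 1.07, 1.16 and 1.12, and in all 4 the groups were apart, although 1455814_x_at did not pass under quantile normalization. The fifth, 1423643_at, gave 2715, 2860 and 3208 and then 2242, 2386 and 3160, with overlap and no call (log2 fold change −0.20, SE 0.09, limma adjusted p = 0.0695), and it was called lower without amplified replicate 3 (−0.25) or 7 (−0.24), and called higher with median centring (0.36).

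Ddx39b had a probe set called in each direction. Probe set 1447779_x_at gave 1953, 2130 and 2264 on nonamplified and 52.9, 85.3 and 144 on amplified arrays, far apart (log2 fold change −4.39, SE 0.13, limma adjusted p = 4.80e-14). Probe set 1437984_x_at gave 2114, 2211 and 2472 and then 3560, 3658 and 4316, apart in the other direction (log2 fold change 0.77, SE 0.072, limma adjusted p = 9.83e-08), but −0.10 with no call under quantile normalization. The third bright one, 1448221_at, gave 2282, 2389 and 2572 and then 2290, 2794 and 3444, and did not pass (0.20, limma adjusted p = 0.078). It was called higher without amplified replicate 4 or 6 (0.24 each), with median centring (0.76), on the brighter 50% (0.54) and with a robust trend (0.20), and called lower under quantile normalization (−0.65). The dim 1437367_at was higher (0.70), with a range of 26.7 to 47.0 without amplification and 54.0 to 88.7 after it.

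Ddx19b, which strips export factors from mRNA at the cytoplasmic face of the nuclear pore, was higher in 1425205_at, from 59.1, 67.5 and 80.9 to 137, 221 and 298 (log2 fold change 1.42, SE 0.14, limma adjusted p = 2.40e-07), with no overlap. Its probe set 1424590_at gave 85.9, 98.0 and 114 without amplification and ranged over 1 to 159 after it, without a call (−0.85). Ddx19a, its paralogue, and Ddx3y, the Y-linked relative of Ddx3x, are not analysed here, since no probe set met the rule.

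Helicases of transcription, microRNA processing and snRNP assembly were split by probe set rather than by gene. Of 14 tested probe sets of Ddx5, Ddx17, Dhx9, Ddx1 and Ddx20, 7 rose (50%), 3 fell (21.4%) and 4 did not pass, with a median of 0.15. Over all tested probe sets 24.7% were higher and 32.8% lower. Most of the 14 had a nonamplified mean of 500 or more. Between 500 and 2000 the shares over all tested probe sets were 33.8% higher and 34.5% lower, and at 2000 or more 58.5% and 21.1%. Each of the 3 lower calls belonged to a gene with a higher call as well, namely Ddx5, Ddx17 and Dhx9.

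Ddx5 and Ddx17 are paralogues that act as transcriptional coactivators and as partners of the Drosha complex. The brightest Ddx5 probe set, 1419653_a_at, gave 3458, 3730 and 4011 without amplification and 2062, 3272 and 3714 after it, with overlap and no call (log2 fold change −0.25, SE 0.11, limma adjusted p = 0.0578), and it was called lower without amplified replicate 2 (−0.28), 7 (−0.28) or 8 (−0.29). The _x_at probe sets 1438371_x_at and 1454793_x_at were higher by a small step (0.40 and 0.38), and lower instead under quantile normalization (−0.48 and −0.49). By contrast, 1433810_x_at gave 805, 1110 and 1374 and then 242, 350.4 and 384, below in every array (log2 fold change −1.66, SE 0.12, limma adjusted p = 3.44e-09). Its partner of the same sequence record, the dim 1433809_at, gave 42.6, 53.8 and 72.5 and then 116, 163 and 182, above in every array (log2 fold change 1.24, SE 0.11, limma adjusted p = 4.53e-08). Both of these last calls held under all 5 scalings. Probe set 1423645_a_at did not pass (−0.078, and 0.040 without amplified replicate 3).

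Ddx17 gave 2298, 2470 and 2562 without amplification in 1437773_x_at and 5242, 6318 and 6886 after it, apart from each other (log2 fold change 1.34, SE 0.07, limma adjusted p = 6.40e-11). The probe set 1452155_a_at rose likewise (0.94), though not under quantile normalization (0.096). The dimmer 1439037_at fell from 135, 164 and 236 to 54.2, 80.6 and 109, without overlap (log2 fold change −0.94, SE 0.14, limma adjusted p = 2.23e-05).

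Dhx9, also called RNA helicase A, bridges transcription factors to the polymerase and unwinds structured RNA. Its probe set 1451770_s_at rose from 2152, 2342 and 2456 to 4143, 5119 and 5741 (log2 fold change 1.08, SE 0.084, limma adjusted p = 9.35e-09), and did not pass under quantile normalization (0.20). Probe set 1425617_at of the same record fell from 983, 1095 and 1140 to 122, 235 and 546 (log2 fold change −1.96, SE 0.23, limma adjusted p = 1.28e-06). In each the groups were apart, in opposite directions. Ddx1, a part of the tRNA ligase complex, was higher in 1440816_x_at (0.83) and did not pass in 1415915_at (−0.23). Ddx20, the Gemin3 subunit of the SMN complex that builds snRNPs, did not pass (−0.24).

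Ribosome biogenesis helicases, the largest role group, showed no common direction. Of 26 tested probe sets of 15 genes, 6 rose (23.1%, against 24.7% of all tested), 8 fell (30.8%, against 32.8%) and 12 stayed short of the threshold. The median was −0.29, and 4 of the higher and 4 of the lower calls held under all 5 scalings. Ddx54 was higher throughout and Ddx52 lower throughout, while Ddx21, the brightest of the group, did not pass.

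Ddx54, a nucleolar helicase of the large subunit pathway, rose in all 3 probe sets. Probe set 1460396_at gave 432, 502 and 578 without amplification and 2030, 3032 and 5549 after it (log2 fold change 2.64, SE 0.16, limma adjusted p = 4.53e-10). Probe set 1438853_x_at gave 849, 905 and 937 and then 3100, 4700 and 7401, with a log2 fold change of 2.39, and 1447882_x_at had one of 1.69. Each group was apart from the other, and amplified replicate 8 was the highest array in all 3. Ddx52, the counterpart of yeast Rok1 in small subunit assembly, gave 257, 281 and 314 and then 6.39, 20.1 and 172 in 1434607_at (log2 fold change −2.53, SE 0.40, limma adjusted p = 4.52e-05). In 1434608_at of the same record it fell by a like step (−2.20), again with no overlap.

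Ddx49 showed the highest fitted increase of the family in 1435681_s_at, from 37.5, 56.8 and 63.6 to 1, 1328 and 2996 (log2 fold change 3.65, SE 0.80, limma adjusted p = 0.000921). The amplified arrays ran from far below to far above the nonamplified ones: replicate 2 stood at the floor of the table, an intensity of 1, and the next lowest at 812. Without replicate 2 the log2 fold change was 4.46. Its other tested probe set, 1455563_at, did not pass (−0.079) and spread over 62.5 to 1279 around 406 to 452. That small difference turned positive without amplified replicate 1 (0.044), 2 (0.21) or 4 (0.27). Ddx21, which joins rRNA transcription to its processing, gave 1499, 1598 and 1639 without amplification and 1254, 1853 and 2306 after it in 1448270_at, with overlap (log2 fold change 0.15, SE 0.11, limma adjusted p = 0.287). Its probe set 1448271_a_at had a log2 fold change of −0.45, and was called lower without amplified replicate 1 (−0.55) or 8 (−0.51).

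Ddx10 had probe sets of one sequence record in opposite directions. Probe set 1428563_at fell from 480.1, 498 and 542 to 26.4, 46.0 and 70.0 (log2 fold change −3.03, SE 0.14, limma adjusted p = 9.52e-12), without overlap. Probe set 1452838_at was called higher by a small step (0.38), with overlap. Ddx56 (−1.67), Ddx24 (−1.03) and Ddx55 (−0.37) were lower, and Ddx18 (−0.68) and Ddx47 (−0.67) were lower in 1 of 2 tested probe sets each. Ddx50, the paralogue of Ddx21, was higher (0.93). No tested probe set of Ddx27, Ddx31, Ddx51 or Dhx33 passed.

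Mitochondrial helicases were represented by Dhx30, which takes part in the assembly of the mitochondrial ribosome, and Ddx28. Of 5 tested probe sets, 3 rose (60%, against 24.7% of all tested), 0 fell (against 32.8%) and 2 did not pass (median 0.67). The bright Dhx30 probe set 1416140_a_at gave 605, 637 and 679 without amplification and 421, 578 and 1002 after it, with overlap and no call (log2 fold change −0.13, SE 0.14, limma adjusted p = 0.47). The dim 1453251_at gave 25.6, 30.4 and 41.5 and then 172, 245 and 289, apart in every array (log2 fold change 2.41, SE 0.10, limma adjusted p = 4.92e-12). Its nonamplified mean was at the level the filter removes, and it was the only 2-fold higher call of the group. The remaining Dhx30 probe sets were higher (0.67 and 0.73). Ddx28 did not pass (−0.79, limma adjusted p = 0.081), and was called lower without amplified replicate 1 (−0.92) or 2 (−0.93), with weights by group (−0.79) and on the hybridization controls (−1.14).

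Of 11 tested probe sets with other or less defined roles, 3 rose (27.3%, against 24.7% of all tested), 4 fell (36.4%, against 32.8%) and 4 did not pass (median −0.57). Dhx36, which unwinds G-quadruplexes, gave 606, 665 and 753 without amplification and 27.0, 35.8 and 46.8 with it in 1424398_at, far apart (log2 fold change −3.73, SE 0.091, limma adjusted p = 5.48e-15). Its probe set 1424397_at of the same record fell less (−1.36), and 1437550_at did not pass (−1.15). That probe set was called lower without amplified replicate 1 (−1.39) or 8 (−1.47), with weights by group (−1.15) and on the hybridization controls (−1.46). Ddx59 was lower (−1.92), and the DNA helicase Ddx11 was lower in 1 of 2 probe sets (−0.57). Dhx57 was called higher with amplified arrays spread over 17 to 2016 around 98.1 to 126 (log2 fold change 1.61, SE 0.66, limma adjusted p = 0.0456). Leaving out any nonamplified array, or amplified replicate 1, 3, 6 or 8, ended that call (log2 fold change 1.28 to 1.63, limma adjusted p between 0.0618 and 0.0881). Dhx40 did not pass (0.40), and was called higher without amplified replicate 4 (0.66, limma adjusted p = 0.0252) and with median centring (0.95).

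Helicases of viral RNA sensing and of germ cells were dim or irregular. Of 8 probe sets for Ddx58 (RIG-I), Dhx58 and Ddx60, 1 was tested, and none of the 3 tested probe sets for the germ cell genes Ddx4, Ddx25 and Ddx43 passed. The tested Ddx58 probe set gave 279.6, 285 and 302 without amplification and 3.92, 258 and 508 after it, spread on both sides (log2 fold change −0.90, SE 0.58, limma adjusted p = 0.2).

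Ddx4, the mouse Vasa and a classical germ cell marker, showed the largest spread of all helicases on the amplified arrays. On the nonamplified arrays it gave 132, 156 and 168. The amplified replicates 1 to 8 gave 8.31, 1264, 4.49, 6.87, 589, 1016, 436 and 1. Replicates 2, 5, 6 and 7 were thus far above the nonamplified range and replicates 1, 3, 4 and 8 far below it. The group difference did not pass (log2 fold change −0.38, SE 0.94, limma adjusted p = 0.758), whereas the difference in spread did (SD 2.82 against 0.12 on the log2 scale, limma adjusted p = 2.22e-08). Ddx43 spread in the same manner, over 3.40 to 589.6 around 74.1 to 84.9 (SD 1.78 against 0.056), and was called higher without amplified replicate 5 (log2 fold change 1.20, limma adjusted p = 0.0347, against 0.76 with all arrays).

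The arrays were next compared for spread within each group, which asks how far independent amplifications of the same RNA resembled each other. The test was limma on the absolute deviation from the group mean, a form of Levene's test, over all 27022 probe sets. Among the 95 helicase probe sets, 62 were more variable on amplified arrays (65.3%, background 52.8%) and 0 were less variable (background 0.418%). Scaled on the hybridization controls, 21 of the 95 were more variable, against 6664 of all 27022, a share no higher than the background. The median SD over 8 arrays on the log2 scale was 0.42 with amplification and 0.090 without, against 0.51 and 0.13 over all tested probe sets.

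Spread followed the level without amplification, for the helicases as for the rest. Among the 17 helicase probe sets with a nonamplified mean of 2000 or more, the median SD on amplified arrays was 0.18 (0.19 over all probe sets of that level). Among the 24 between 500 and 2000 it was 0.39 (0.62 over all), and among the 40 between 100 and 500 it was 0.86 (0.89 over all). Below 100 the 14 tested probe sets had a median SD of 0.40 (0.37 over all), where the added constant of 16 narrows differences. The calls differed by level too. At 2000 or more 11 were higher and 2 lower (64.7% and 11.8%, against 58.5% and 21.1% of all tested probe sets of that level), and between 100 and 500, 5 were higher and 18 lower (12.5% and 45%, against 12.3% and 44.0%).

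**Figure D3:**
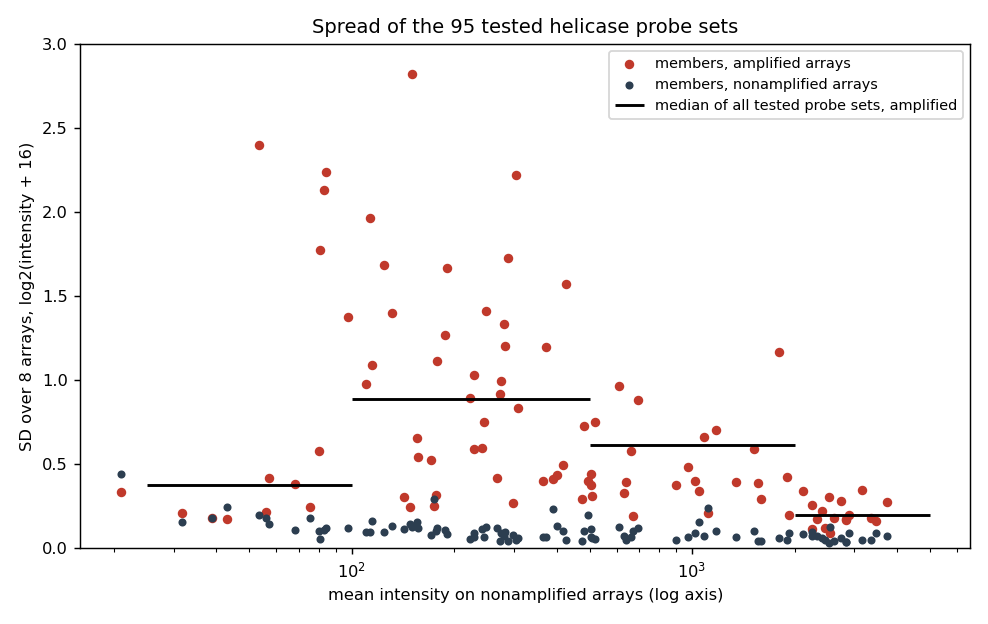
SD over the 8 arrays of a group on the scale of log2(intensity + 16) against the mean intensity on nonamplified arrays (log axis), for the 95 tested helicase probe sets on amplified (red) and nonamplified (dark) arrays. Black lines mark the median SD of all tested probe sets on amplified arrays at 4 levels, highest at 0.89 between 100 and 500 and lowest at 0.19 from 2000 up. The medians of the red points were near these lines except between 500 and 2000, where the red median was 0.39 against 0.62.

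The steadiest helicases were bright ones. Ddx5 1454793_x_at had an SD of 0.088 over the amplified arrays, which ran over 2913 to 3572. Ddx39b 1437984_x_at (SD 0.12) and Ddx17 1437773_x_at (SD 0.12) followed. Among the more variable ones, Ddx46 1455103_at gave 286, 306 and 318 without amplification and 1, 204 and 1152 after it (SD 2.22 against 0.047), reaching both sides of the nonamplified range. Likewise Ddx49 1455563_at had an SD of 1.57, Ddx58 1436562_at one of 1.73 and Dhx36 1437550_at one of 1.67. An array at or below the 25th percentile of its own probe sets was counted as a dropout where the probe set lay in the upper 50% without amplification. Of 91 such helicase probe sets, 22 dropped out on at least 1 amplified array (24.2%, against 35.3% of all such probe sets) and 0 on all 8. Values at least 2-fold below the nonamplified mean on some amplified arrays and at least 2-fold above it on others were found for 14 of the 95 (14.7%, against 21.1%).

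**Figure D4:**
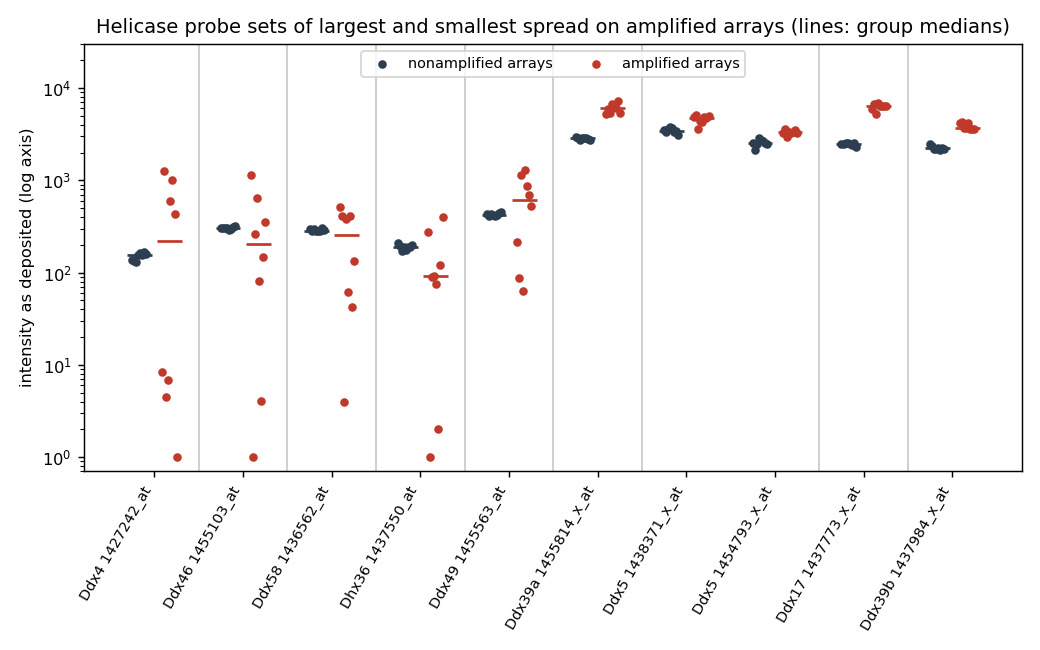
Intensity as deposited (log axis) on the 8 nonamplified (dark) and 8 amplified (red) arrays for the 5 helicase probe sets of largest and the 5 of smallest spread among those in the top 25% of nonamplified means, with group medians as lines. The amplified values of Ddx4 run from 1 to 1264 around nonamplified values of 132 to 168, while those of Ddx5 1454793_x_at stay between 2913 and 3572.

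Disagreement between probe sets of one gene was examined for the 28 helicase genes that had 2 or more tested probe sets. The range of log2 fold changes within a gene had a median of 1.37, against 1.35 over all 5605 such genes, and reached 2 or more in 13 genes (46.4%, against 31.7%). It was largest in Ddx3x (7.04). Fold changes of 2-fold or more in both directions occurred within 2 genes, Ddx5 and Dhx9 (7.14%, against 8.10%). Both shares count fold changes whether or not they were called. In Ddx5 and Dhx9 these opposite changes were also called. Probe sets assigned to one sequence record differed by 3.80 in Ddx46, 3.41 in Ddx10, 3.04 in Dhx9 and 2.90 in Ddx5, and by only 0.33 in Ddx52, 0.49 in Dhx15 and 0.59 in Ddx21.

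Counted by gene, 6 of the 48 tested genes were higher in every tested probe set (Ddx23, Ddx50, Ddx54, Dhx15, Dhx34 and Dhx57). Ddx50, Dhx34 and Dhx57 had only 1 tested probe set each. Another 10 genes were lower in every tested probe set (Ddx6, Ddx24, Ddx41, Ddx52, Ddx55, Ddx56, Ddx59, Dhx8, Dhx16 and Dhx29). All of them except Ddx6, Ddx52 and Dhx29 had only 1. Probe sets called in both directions were found in 5 genes (Ddx5, Ddx10, Ddx17, Ddx39b and Dhx9), and in 14 genes none passed. These counts by gene were not made for all genes on the array. By type of probe set, 13 of the 16 helicase probe sets named _x_at, which hold oligonucleotides that can match other transcripts, were higher and 2 lower (81.3% and 12.5%, against 40.6% and 19.4% of all tested _x_at probe sets). These 16 came from 9 genes, and many, among them those of Ddx39a, Ddx39b and Ddx17, had a nonamplified mean of 2000 or more. At that level 58.5% of all tested probe sets were higher and 21.1% lower, and the shares by type were not matched for level. Of the 61 plain _at probe sets, 10 were higher and 26 lower (16.4% and 42.6%, against 23.4% and 33.5%). The part of cross-hybridization in these values was not tested.

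Probe sets of one gene were also compared array by array, over 80 pairs of tested probe sets within a gene. On the amplified arrays 25 pairs had their lowest value on the same array (31.3%, against 21.3% of pairs over all genes), and on the nonamplified arrays 20 did (25%, against 17.1%). The highest amplified value was on the same array in 19 (23.8%, against 23.5%). On the amplified arrays 30 pairs lay on the same side of their medians on 6 or more arrays (37.5%, against 37.8%), and 10 on all 8 (12.5%, against 9.01%). Amplified replicate 3 was the lowest array in 5 of 6 Ddx5 probe sets, and replicate 1 in 4 of 5 Ddx39a probe sets. Replicate 2 was the lowest in 3 of 4 Dhx30 probe sets. Pairs of one gene share the arrays and may share oligonucleotide targets, and these shares are given as a description.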

How the data were processed

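Column-purified RNA was converted to biotin-labelled cRNA by the one-cycle procedure of the array's maker, per the labels' protocols. The deposited values are linear intensities, 1 for each probe set on each array, with a floor of 1. Summarisation and scaling between arrays were not given in the sources used here, and the intensities entered as deposited. Probe sets were named from the platform annotation, and all 51 member genes matched the mouse RefSeq table of GRCm38.p6.

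Values were taken as log2(intensity + 16), which understates changes of dim probe sets. The filter on dim probe sets lay at an intensity of about 33.7, and 64 Affymetrix control probe sets were left out. The titles gave the groups. The comparison was a limma fit (version 3.58.1, lmFit then eBayes, under R 4.3.3) with no covariate, and its 2-sided p-values were adjusted by Benjamini-Hochberg over all 27022 tested probe sets. The test of spread was a limma fit to absolute deviations. Both were tested on simulated data. No p-value was computed over a list. Tables were made with pandas 2.3.3 and figures with matplotlib 3.10.9 in Python 3.11.15.

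The members, the 9 role lists, the lists of related helicases and cofactors and the rule for named probe sets were chosen with earlier results of these data known. The rule took the 8 members of highest nonamplified mean, the 6 largest changes in each direction without overlap, the 5 of largest and the 5 of smallest SD in the top 25% of nonamplified means, 2 of highest mean and 1 of largest change per role list, all probe sets of genes with opposite 2-fold calls, the paralogous pairs and Ddx4. It gave 48 probe sets of 20 genes. Other probe sets named in the text were chosen after their values were seen. The numbers of the titles did not pair the arrays: same-numbered arrays correlated between −0.0078 and 0.018 in their deviations from the group means. The number of arrays limits the precision, and no scan date or slide was available to test as a batch.

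Alternatives for scaling were quantile normalization, median centring and the brighter 50% of probe sets. Others were pseudocounts of 1 and 64, a filter at the 60th percentile or none, dropping _x_at and _s_at probe sets, weights by group, a robust trend on intensity, a block for the replicate number, and leaving out arrays singly. Scaling on 9 hybridization control probe sets and a filter on the mean linear intensity were added after seeing the data.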

Additional observations from a re-analysis of the deposited data

Results flagged for a closer look

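Each group of 8 arrays was examined for 1 value far from the other 7, in the 48 named probe sets and thus in 96 groups. Gaps and ranges were taken on the log2 scale of the tests, with its added constant. The values printed here are intensities as deposited. On that log2 scale, a gap to the nearest value of more than 0.526 of the range was found in 6 groups, and chance alone gives about 1 in 20. Of these, 4 concern Ddx5. Amplified replicate 3 was low in 1419653_a_at, at 2062 against 2994 for the next lowest, and in 1433810_x_at, at 242 against 316. Nonamplified replicate 2 was low in 1423645_a_at, at 1751 against 1863, and in 1454793_x_at, at 2127 against 2489. In Ddx46, 1424570_at, nonamplified replicate 8 was high, at 683 against 503 for the next highest. In Ddx49, 1435681_s_at, amplified replicate 2 was at the floor of 1, against 812 for the next lowest.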

How the results depend on the processing

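The counts of helicase probe sets lower (30) and at least 2-fold lower (23) stayed within 1.5 times under all alternatives run. The count higher (30) was 18 under quantile normalization, 17 when scaled on the hybridization controls and 14 without _x_at and _s_at probe sets, where fewer members are tested. Over all tested probe sets the count higher went from 6677 to 8250, 3806 and 5674 in the same order, the last of 24305 probe sets. Under quantile normalization the helicase count thus fell while the count over all rose. The count at least 2-fold higher (15) was 26 with median centring, 7 on the hybridization controls and 6 without _x_at and _s_at probe sets. Over all tested probe sets it went from 3373 to 6006, 2256 and 2846 in the same order. The count more variable (62) was 21 on the hybridization controls, where the count over all tested probe sets went from 14263 to 6664. Array weights, intensity trend and block were not run for the test of spread. The cause of the changes between scalings was not tested.

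Leaving out 1 array gave 29 to 32 higher, 29 to 35 lower, 14 to 17 at least 2-fold higher, 21 to 25 at least 2-fold lower and 54 to 66 more variable. It ended the calls of Dhx29 1434710_at and Dhx57 and brought 16 other probe sets past the threshold. Besides those given with their arrays above, these were Ddx25 (−0.39 without amplified replicate 3), Ddx51 (−0.79 without 1), Dhx32 1420427_a_at (−0.87 without 5, −1.07 without 7), Dhx33 1438765_at (−1.28 without 7), Ddx31 1438962_s_at (−1.62 without 7, −1.68 without 8) and Ddx47 1438381_x_at (0.50 without 8). With the replicate number as a block, an arrangement that the pairing check does not bear out, 29 were higher, 29 lower, 14 at least 2-fold higher and 22 at least 2-fold lower, and 3 of 8 amplified arrays correlated best with their own number.

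Among named probe sets, the following log2 fold changes turned sign. Under quantile normalization they became −0.38 (Dhx15 1416145_at), −0.83 (Ddx3x 1423042_at), −0.12 (Dhx40), −0.10 (Ddx39b 1437984_x_at), −0.65 (Ddx39b 1448221_at), −0.48 and −0.49 (Ddx5 1438371_x_at and 1454793_x_at) and −0.64 (Ddx21 1448270_at). On the hybridization controls they became −0.39 (Ddx3x 1423042_at), −0.011 (Dhx40), −0.013 and −0.037 (Ddx5 1438371_x_at and 1454793_x_at), −0.21 (Ddx39b 1448221_at) and −0.26 (Ddx21 1448270_at). With median centring they became 0.42 (Dhx30 1416140_a_at), 0.31 and 0.48 (Ddx5 1419653_a_at and 1423645_a_at), 0.36 (Ddx39a 1423643_at), 0.031 (Ddx4), 0.11 (Ddx21 1448271_a_at) and 0.46 (Ddx49 1455563_at). On the brighter 50% they became 0.20 (Dhx30 1416140_a_at), 0.079 and 0.25 (Ddx5 1419653_a_at and 1423645_a_at), 0.13 (Ddx39a 1423643_at) and 0.24 (Ddx49 1455563_at). With a pseudocount of 64 they became 0.16 (Ddx4) and 0.012 (Ddx49 1455563_at). Leaving out 1 array gave −0.065 to 0.073 for Ddx3x 1423042_at, −0.15 to 0.040 for Ddx5 1423645_a_at, −0.85 to 0.036 for Ddx4 and −0.31 to 0.27 for Ddx49 1455563_at. The replicate block could turn no sign, because each number occurs once in each group and the fitted difference stays the same. Signal near the floor of 1 limits the dim probe sets.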
